A study of Mus musculus with 8 samples.

Results

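Ribosome biogenesis and nucleolar genes encode the proteins that make, fold, modify and cut ribosomal RNA in the nucleolus and assemble it into ribosomal subunits. A set of 55 such genes was compared between control B cells and B cells with floxed Eif4a1, the gene of an RNA helicase that unwinds mRNA for translation. The members were chosen by gene name, and all 55 were among the 53242 genes of the deposited tables. Splenic B cells came from C57BL/6 mice 8 to 12 weeks old, either Eif4a1+/+ CD23-cre (control) or Eif4a1fl/fl CD23-cre (4A1 KO), so that both genotypes carried the Cre transgene. Cd23-cre deletes the floxed gene in immature B cells of the spleen, and the cells of both genotypes were kept for 24 h in 40 ng/ml IL4 on irradiated CD40LB cells, feeder cells that present CD40 ligand and secrete BAFF, which were then removed with antibody-coated beads. RNA of 4 control and 4 4A1 KO cultures was sequenced, numbered 1 to 4, with 1 and 2 in batch A, 3 and 4 in batch B, 1 and 3 from males and 2 and 4 from females. Because the study set replicate 1 of both genotypes aside for low viability, fold changes, standard errors (SE), means and SD are over replicates 2 to 4 (n = 3 per genotype), and the values of all 8 libraries are shown beside them.

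Ribosome synthesis begins in the nucleolus, where ribosomal DNA is transcribed into a long precursor RNA. Small nucleolar RNPs guide chemical modification of that precursor, the small subunit processome folds and cuts the part that becomes the 40S subunit, and a separate series of factors carries the part that becomes the 60S subunit to the nucleoplasm. A resting B cell has a small nucleolus, and activation is known to enlarge it as the cell grows, with the transcription factor MYC among the known activators of these genes.

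The control libraries held 39890141 to 43210858 counts on genes and the 4A1 KO libraries 31727557 to 42705798. Eif4a1 itself fell by 0.44 on the log2 scale (SE 0.050, adjusted p = 1.15e-04), with 828, 747, 936 and 888 CPM (counts scaled to the library total) in control 1 to 4 and 593, 557, 635 and 691 in 4A1 KO 1 to 4. These counts cover the whole gene, including exons outside the floxed part, and 3 pseudogenes of at least 90% identity held counts equal to 30.3% of those of Eif4a1 in control and 12.4% in 4A1 KO. Ms4a1, a B cell marker, was abundant in both genotypes (mean 579.7 CPM in control and 606 in 4A1 KO), whereas the B cell markers Cd79b, Cd22 and Cd79a were called lower, with log2 fold changes of -0.89, -0.76 and -0.67. Fibroblast markers, 16 genes that feeder cells could bring, summed to 30.3 to 55.5 CPM in control and 27.0 to 38.7 in 4A1 KO, and 8 of the 16 stayed under 1 CPM in every library. T cell markers summed to 14.6 to 24.4 and 10.3 to 19.5 CPM and myeloid markers to 4.12 to 8.17 and 7.28 to 8.99 CPM, with Cd3g, S100a8 and S100a9 at 0 in all 8 libraries. Of these fibroblast, T cell and myeloid markers, Fn1 (log2 fold change 0.86, adjusted p = 0.0215) and the macrophage marker Adgre1 (0.62, adjusted p = 0.00687) were called higher and Col3a1 (-1.57, adjusted p = 0.0437) lower. The part of these markers in the results on ribosome biogenesis genes was not tested.

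The ribosome biogenesis genes were abundant in activated B cells of both genotypes. The lowest count of any of them in any library was 1422, and all 55 were among the 14218 genes that passed the count filter and were tested. Together they took 2.25 to 2.47% of all counts in the control libraries (median 2.33%) and 2.50 to 2.67% in the 4A1 KO libraries (median 2.57%). No 4A1 KO library overlapped a control library in this share. In TPM, the authors' transcript levels scaled to gene length, the sum was 17443 to 19669 in control and 19106 to 20967 in 4A1 KO, and here the genotypes overlapped, although in each same-numbered pair the 4A1 KO library had the larger sum. CPM and TPM are shares of a library, so that a change common to all RNA is not seen, and in bulk RNA fewer cells that express a gene cannot be told apart from less RNA per cell.

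Levels per length ranged widely among the genes. Npm1 had 4309.5 ± 109.8 TPM in control (SD, n = 3) and Ncl 2734 ± 55.7, followed by Nhp2 with 817 ± 51.9. Npm1 and Ncl supplied 34.3 to 37.3% of all member counts in control and 34.3 to 35.5% in 4A1 KO. At the other end, Noc3l had 50.8 ± 7.63 and Wdr12 57.5 ± 9.19 TPM in control, and the median member had 163 TPM.

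**Figure D1:**
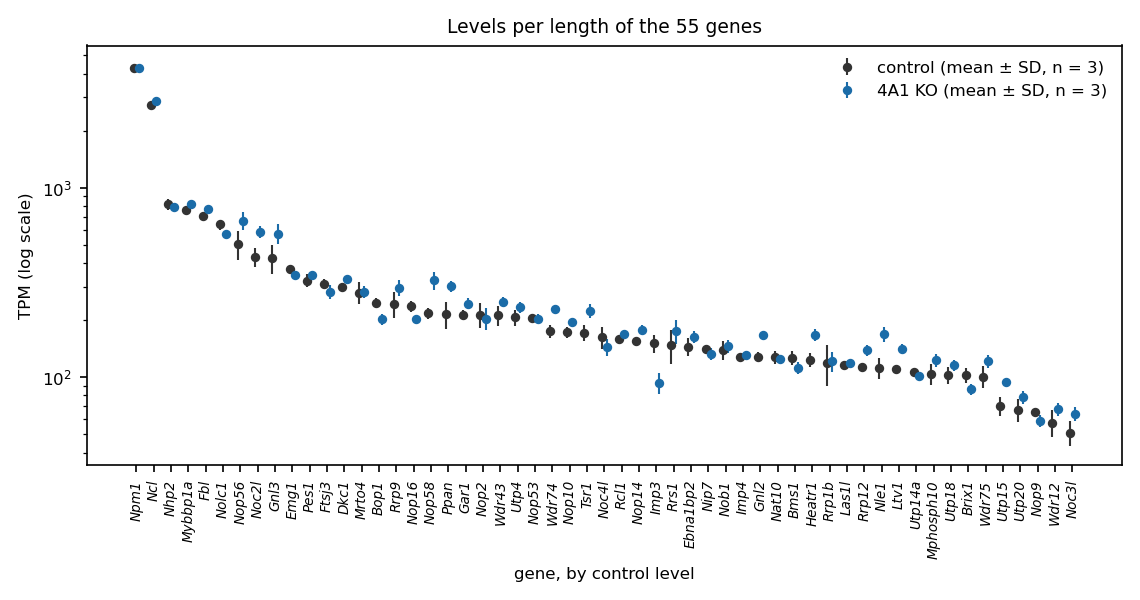
Mean TPM of the 55 ribosome biogenesis genes (log scale) in control (black) and 4A1 KO (blue) B cells, ordered by control level, with bars for SD over 3 libraries per genotype. Npm1 and Ncl stand above the rest, Noc3l is the lowest, and Imp3 is the member whose blue point lies farthest below its black one.

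Most of the ribosome biogenesis genes changed little, and more of them rose than fell. Genes are called here where the adjusted p was under 0.05 and the log2 fold change above 0.5 in absolute size (quasi-likelihood test of edgeR, adjusted over all genes tested by the Benjamini-Hochberg method). Nle1 and Ppan were called higher and Imp3 lower, 3 of 55 (5.45%), whereas 25.3% of all genes tested were called, 11.6% higher and 13.7% lower. By the adjusted p alone (under 0.05), 28 members were higher (50.9%, beside 26.3% of all genes tested), 9 were lower (16.4%, beside 26.7%) and 18 did not pass. Of these 37 members, 13 lost the adjusted p of 0.05 when some replicate was left out. Without replicate 2 these were Fbl, Dkc1, Nop10, Utp4, Utp20, Nop9, Nop16, Wdr12, Rrs1, Ftsj3 and Ebna1bp2, without replicate 3 Fbl, Dkc1, Nolc1, Nop9, Noc4l, Nop16 and Ftsj3, and without replicate 4 Fbl, Dkc1 and Nop10. With either direction counted, the members past that p were 67.3% of the 55, beside 53% of all genes. A log2 fold change above 0 was found in 38 of 55, beside 50.6% of all genes.

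The median log2 fold change of the 55 genes was 0.13, and that of all genes tested was 0.0066. Pairing each 4A1 KO library with the control library of the same number gave medians of 0.14, 0.18, 0.13 and 0.12 for replicates 1 to 4. In absolute size the median was 0.18 among the members and 0.31 among all genes. The 95% interval of the fold change lay wholly within 0.5 of 0 on the log2 scale for 45 of the 55 genes (81.8%), beside 42.9% of all genes. Every 4A1 KO library was above every control library for 24 members (43.6%, beside 17% of all genes), and below for 7 (12.7%, beside 19.9%). All 4 same-numbered pairs were higher for 37 members (67.3%, beside 33% of all genes) and lower for 11 (20%, beside 34.1%). The lowest count of a member in any library was 1422, whereas all genes tested included genes of far lower level. Col3a1, for example, had a mean of 0.53 CPM in control and 0.20 in 4A1 KO. The shares and medians of all genes were not matched for level, and the part of level in these differences was not tested. No test was made of the members as a list.

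**Figure D2:**
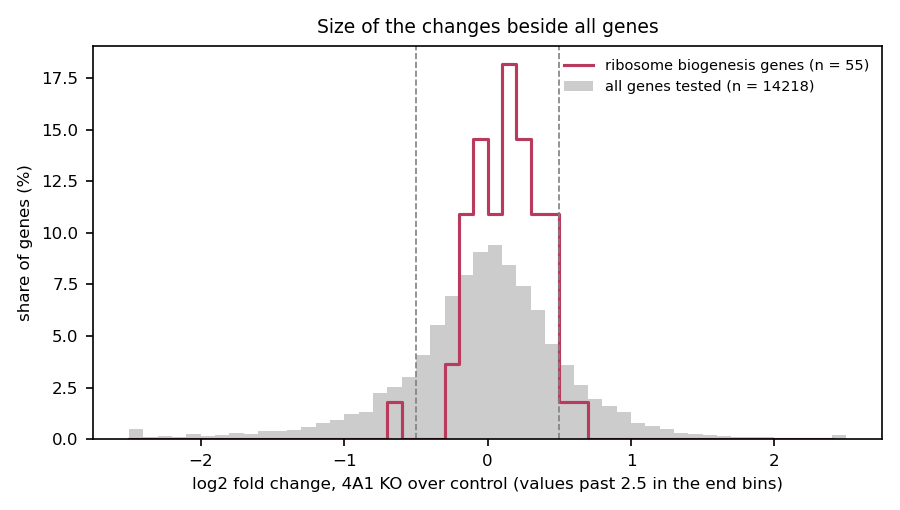
Share of genes (%) by log2 fold change, 4A1 KO over control, for the 55 ribosome biogenesis genes (red line) and all 14218 genes tested (grey), with dashed lines at the 0.5 thresholds. The red line is narrower than the grey area and sits mostly right of 0, with 1 gene below -0.5 and 2 above 0.5.

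The box C/D snoRNP is the enzyme complex that places 2′-O-methyl groups on ribosomal RNA, guided by C/D small nucleolar RNAs, and the mRNAs of its 3 core proteins in the set had higher levels in 4A1 KO, with Fbl only narrowly past the test. Nop56, a scaffold protein of the complex, had 458, 385, 529.9 and 485 CPM in control 1 to 4 and 681, 559, 692 and 647 CPM in 4A1 KO 1 to 4. Its log2 fold change was 0.45 (SE 0.047, adjusted p = 7.69e-05), and every 4A1 KO library was above every control library. For Nop58, the partner of Nop56 at the other end of the guide RNA, control 1 to 4 held 618, 619, 673 and 657 CPM and 4A1 KO 1 to 4 held 890.0, 853, 901 and 816. The log2 fold change was 0.40 (SE 0.046, adjusted p = 1.27e-04), again with no overlap between genotypes. In TPM the ratio of Nop58 was larger, at 0.58 on the log2 scale (218 ± 14.9 against 325 ± 36.4 TPM), and only by limma on TPM did Nop58 pass the 0.5 threshold. Nop56 hosts 5 and Nop58 2 small nucleolar RNA genes that share exonic bases with them on the same strand. Each of these had at most 1380 counts summed over replicates 2 to 4 of a genotype. Counts on 5 pseudogenes of Nop56 equalled 2.21% of its own in control and 1.92% in 4A1 KO. Fibrillarin (Fbl), the methyltransferase itself, had 442, 413, 417 and 379 CPM in the control libraries and 510.1, 444, 455 and 407 in the 4A1 KO libraries. These ranges overlapped, and the log2 fold change was 0.11 (SE 0.042, adjusted p = 0.0468). The adjusted p was 0.254 without the replicate block, 0.0819 to 0.163 when a replicate was left out and 0.103 with DESeq2, none of them under 0.05. A pair of Fbl pseudogenes of at least 90% identity held counts equal to 10.3% of those of Fbl in control and 10.6% in 4A1 KO, so its own count is uncertain by how such reads were assigned. The 3 genes summed to 1417 to 1620 CPM in control and 1856 to 2081 in 4A1 KO.

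The box H/ACA snoRNP converts uridine to pseudouridine, and its proteins are also part of telomerase. Dyskerin (Dkc1), the pseudouridine synthase, had 391, 414, 421 and 400.5 CPM in control 1 to 4 and 432, 447, 464 and 450.1 in 4A1 KO 1 to 4, with a log2 fold change of 0.14 (SE 0.043, adjusted p = 0.0201). The adjusted p of Dkc1 was 0.0513 to 0.0684 when a replicate was left out, whichever it was, and 0.0861 without the replicate block. Gar1 had 145, 136, 145 and 130.5 CPM in control and 177, 154, 167 and 148 in 4A1 KO, and its log2 fold change was 0.19 (SE 0.046, adjusted p = 0.00754). The small protein Nop10 had 111, 105.5, 108 and 91.9 CPM in control and 122, 119, 112 and 113 in 4A1 KO, a log2 fold change of 0.18 (SE 0.058, adjusted p = 0.0258) that was 0.12 (adjusted p = 0.125) without replicate 4. For these 3 genes the 4A1 KO libraries all lay above the control libraries, by at most 14.1% of the control level in the fitted fold change. Nhp2, the fourth protein, had 383, 363, 402 and 351 CPM in control and 384, 361, 352 and 367 in 4A1 KO, and these ranges overlapped. Its log2 fold change of -0.040 (adjusted p = 0.576) did not pass the test, and its 95% interval ran from -0.16 to 0.086.

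The mRNAs of the most abundant nucleolar proteins, which organise the nucleolus and chaperone ribosomal RNA and proteins, differed little in level between the genotypes. Npm1, which forms the outer, granular part of the nucleolus, had 2828, 2993, 3069 and 3022 CPM in control 1 to 4 and 3133, 3108, 3074 and 3023 in 4A1 KO 1 to 4. Its log2 fold change was 0.023 (adjusted p = 0.66) with a 95% interval from -0.069 to 0.12, and 7 pseudogenes held counts equal to 9.94% of its own in control and 10.3% in 4A1 KO. Nucleolin (Ncl), which binds nascent precursor RNA, had 4996, 5393, 5577 and 5580.3 CPM in control and 5861, 5775, 6162 and 5705 in 4A1 KO. All 4 4A1 KO libraries were above the 4 control libraries, although the log2 fold change of 0.096 (adjusted p = 0.0891) over replicates 2 to 4 did not pass the test. It was 0.13 (adjusted p = 0.0207) over all 8 libraries. Mybbp1a, a nucleolar protein that also binds transcription factors, had 1694, 1693, 1761 and 1729 CPM in control and 1859, 1813, 1909.9 and 1842 in 4A1 KO, likewise without overlap, and a log2 fold change of 0.11 (adjusted p = 0.0534). The one member of this group that passed was Nolc1, a chaperone of small nucleolar RNPs, with 791, 755, 820.1 and 822 CPM in control and 727, 697, 729 and 737 in 4A1 KO. It was lower in every 4A1 KO library, with a log2 fold change of -0.14 (SE 0.042, adjusted p = 0.0175).

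**Figure D3:**
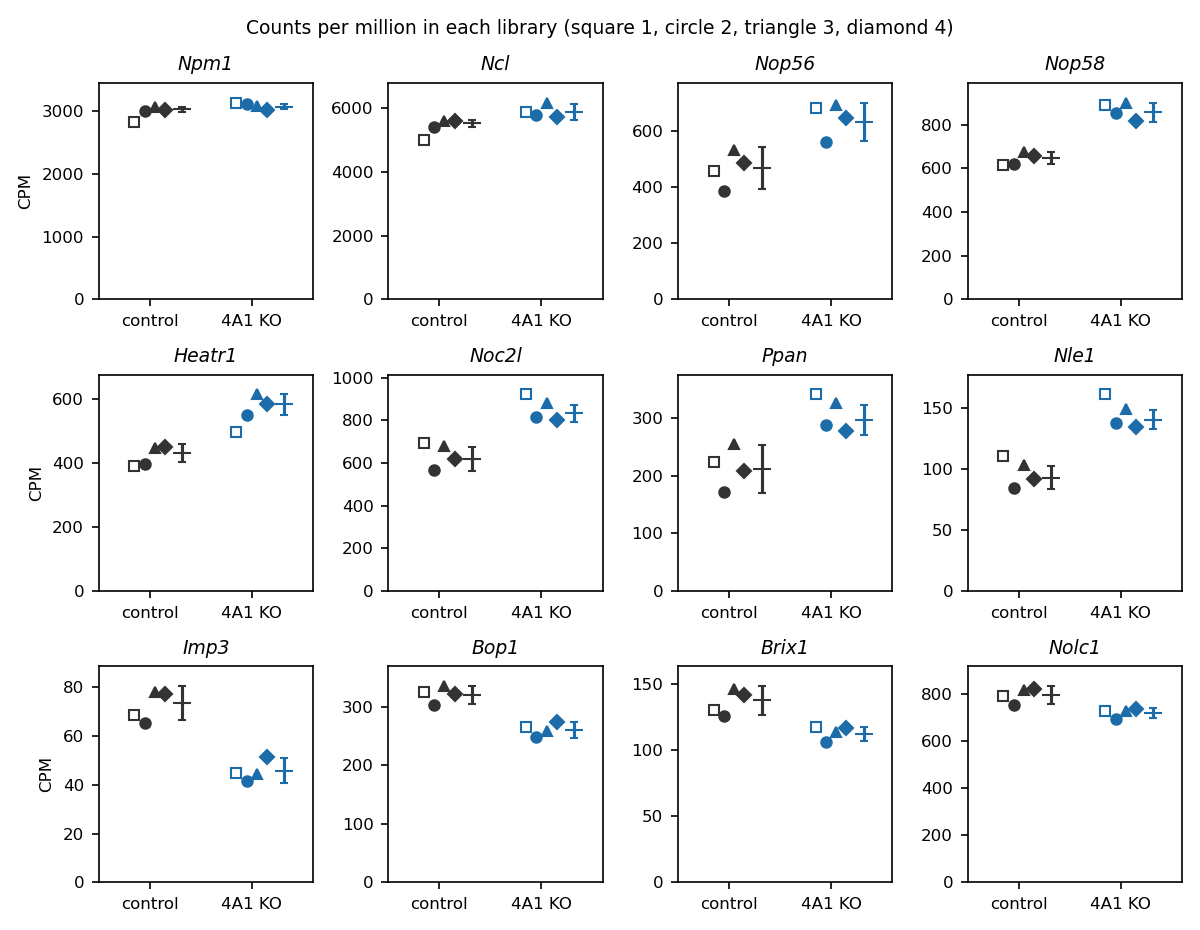
CPM in each library for 12 of the ribosome biogenesis genes, with control in black and 4A1 KO in blue, a marker shape for each replicate number (replicate 1, open square, is outside the fitted comparison) and mean ± SD of replicates 2 to 4 at the right of each group. Nop56, Nop58, Heatr1, Noc2l, Ppan and Nle1 lie higher in 4A1 KO, Imp3, Bop1, Brix1 and Nolc1 lower, and Npm1 overlaps.

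The small subunit processome assembles on the precursor RNA around the U3 small nucleolar RNA. Of its 19 genes in the set, 9 were higher at an adjusted p under 0.05 (47.4%, beside 26.3% of all genes tested). At the same threshold 4 were lower (21.1%, beside 26.7%) and 6 did not pass, and the median log2 fold change was 0.13. Heatr1, a large protein of the UTP-A complex that meets the precursor first, had 391, 398, 447 and 451 CPM in control 1 to 4 and 496, 552, 616 and 584 in 4A1 KO 1 to 4. The log2 fold change was 0.44 (SE 0.044, adjusted p = 6.37e-05). Utp15 of the same complex had 139, 134, 159 and 157 CPM in control and 198, 197, 207 and 196 in 4A1 KO, a log2 fold change of 0.42 (SE 0.056, adjusted p = 2.80e-04). Wdr75, also of UTP-A, had 137, 141, 176 and 168 CPM in control and 178, 184, 207 and 197 in 4A1 KO, and its log2 fold change was 0.28 (SE 0.051, adjusted p = 0.00147). In each of these genes the lowest 4A1 KO library was above the highest control library. Utp4 and Wdr43, also of UTP-A, had log2 fold changes of 0.22 (adjusted p = 0.00604) and 0.23 (adjusted p = 0.00441). Nol11, a UTP-A gene outside the set that is named after its value was seen, was lower instead, at -0.14 (adjusted p = 0.037), with overlap between the genotypes.

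Imp3 fell most of the 55 genes. It encodes a small protein that, with Imp4 and Mphosph10, joins U3 to the precursor RNA, and it lies on chromosome 9 of GRCm39 from 56844722 to 56850236 (ENSMUSG00000032288), with its selected transcript of 924 bases in 1 exon. Control 1 to 4 had 68.7, 65.3, 78.1 and 77.0 CPM and 4A1 KO 1 to 4 had 44.8, 41.4, 44.5 and 51.4, so that the highest 4A1 KO library was below the lowest control library. The log2 fold change was -0.68 (SE 0.063, adjusted p = 4.48e-05), so that the fitted level fell by 37.5%, with a 95% interval from -0.82 to -0.54 on the log2 scale, and it ranged from -0.73 to -0.61 over the fits that each left out 1 replicate. Per length, the level of Imp3 was 151 ± 16.8 TPM in control against 93.5 ± 12.0 TPM in 4A1 KO. A pseudogene of Imp3 with 96.1% identity had 0 counts in all 8 libraries. Of its partners, Imp4 had a log2 fold change of 0.069 (adjusted p = 0.213), with a 95% interval from -0.030 to 0.17, and Mphosph10 rose, with a log2 fold change of 0.25 (SE 0.052, adjusted p = 0.00339).

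Other processome genes moved less. Noc4l, a partner of Nop14, had 159.7, 151, 190.0 and 185 CPM in control and 147, 141, 151 and 169 in 4A1 KO, which overlapped, and a log2 fold change of -0.18 (SE 0.057, adjusted p = 0.0222). Without replicate 3 it was -0.11 (adjusted p = 0.207). Bms1, a GTPase, had 258, 268, 303 and 302 CPM in control and 231, 241, 267 and 264 in 4A1 KO, with a log2 fold change of -0.17 (SE 0.043, adjusted p = 0.00916) and overlap only through replicate 1 of control. Nop9 was the fourth gene that passed with a lower level, at -0.16 (adjusted p = 0.0304), but its adjusted p was 0.165 without replicate 2 and 0.122 without replicate 3. Emg1, a methyltransferase that modifies a single base of 18S ribosomal RNA and had the highest level per length of the group (372 ± 21.5 TPM in control), had 209, 195, 218 and 195 CPM in control and 219.7, 194, 191 and 192 in 4A1 KO. These overlapped, and its log2 fold change of -0.070 (adjusted p = 0.288) did not pass. The remaining processome genes that rose were Rrp9, a protein of the U3 particle, with 0.28 (adjusted p = 0.00227), Utp20 with 0.21 (adjusted p = 0.00612) and Nop14 with 0.21 (adjusted p = 0.00388). Nat10, Imp4, Rcl1, Utp18, Utp14a and Emg1 did not pass, with log2 fold changes from -0.071 in Utp14a to 0.13 in Utp18.

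Late factors of the 40S subunit stay on it after it has left the nucleolus. At an adjusted p under 0.05, 3 of the 4 in the set rose (75%, beside 26.3% of all genes tested). Tsr1, a GTPase-like protein that blocks early use of the new subunit, had 298, 272, 313 and 314 CPM in control 1 to 4 and 404, 368, 430.4 and 399.6 in 4A1 KO 1 to 4, with a log2 fold change of 0.42 (SE 0.045, adjusted p = 9.60e-05). Ltv1, which must be released before the subunit matures, had 135, 132, 136 and 134 CPM in control and 194, 173, 182 and 161 in 4A1 KO, and its log2 fold change was 0.37 (SE 0.051, adjusted p = 3.68e-04). Rrp12, an export factor, had 244, 253, 265 and 262 CPM in control and 306, 304, 338 and 321 in 4A1 KO, a log2 fold change of 0.31 (SE 0.045, adjusted p = 5.13e-04). The genotypes did not overlap in any of the 3. Nob1, the nuclease that cuts the end of 18S ribosomal RNA, had 138, 109, 137 and 127 CPM in control and 153, 125, 143 and 134 in 4A1 KO, which overlapped, and its log2 fold change of 0.12 (adjusted p = 0.0819) did not pass. Summed, the 4 genes had 766 to 852 CPM in control and 970 to 1093 in 4A1 KO.

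The 21 factors of the 60S subunit held both called increases and some of the larger decreases, with a median log2 fold change of 0.11. At an adjusted p under 0.05, 10 were higher (47.6%, beside 26.3% of all genes tested), 4 were lower (19%, beside 26.7%) and 7 did not pass. Nle1 (Notchless), which the AAA-ATPase Mdn1 pulls from the maturing subunit, rose most of the 55 genes. It lies on chromosome 11 of GRCm39 from 82787960 to 82800540 on the minus strand (ENSMUSG00000020692). Nle1 had 111, 84.0, 102.8 and 91.4 CPM in control 1 to 4 and 161, 138, 149 and 134 in 4A1 KO 1 to 4. The lowest 4A1 KO library was above the highest control library. The log2 fold change was 0.60 (SE 0.054, adjusted p = 3.87e-05), an increase of 52.1% with a 95% interval from 0.48 to 0.73 on the log2 scale. Against a log2 fold change of 0.5 itself (edgeR's glmTreat) it did not pass.

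Ppan lies on chromosome 9 of GRCm39 from 20799471 to 20803981 (ENSMUSG00000004100) and encodes a nucleolar protein of the family that also holds Brix1 and Imp4. Control 1 to 4 had 224, 171, 254 and 208 CPM and 4A1 KO 1 to 4 had 341, 287, 326 and 277, without overlap. Its log2 fold change was 0.51 (SE 0.071, adjusted p = 3.82e-04), close to the threshold, and it was called in 7 of the 14 alternative settings. Without replicate 2 it was 0.39, under the threshold. The same-numbered pairs gave log2 differences of 0.61, 0.75, 0.36 and 0.41 for replicates 1 to 4, those of batch A being the larger. The difference of the genotype effect between batches (edgeR interaction term) had an unadjusted p of 0.0138 and an adjusted p of 1. Over all genes so tested, 3.79% had an unadjusted p under 0.05. The exons of Ppan share bases with 2 small nucleolar RNA genes on the same strand. These had at most 268 counts summed over replicates 2 to 4 of a genotype.

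Noc2l, the 60S factor with the highest level per length (432 ± 50.1 TPM in control and 583 ± 41.7 in 4A1 KO), is a partner of Noc3l in nuclear steps of the pathway. It had 694, 566, 678 and 617 CPM in control 1 to 4 and 924, 818, 880.3 and 802 in 4A1 KO 1 to 4, again without overlap. Its log2 fold change was 0.43 (SE 0.047, adjusted p = 1.02e-04), and that of Noc3l was 0.36 (SE 0.055, adjusted p = 6.99e-04). Further nuclear factors rose as well, namely Wdr74 (0.39, adjusted p = 4.34e-04) and the GTPases Gnl2 (0.37, adjusted p = 2.24e-04) and Gnl3, or nucleostemin (0.37, adjusted p = 2.66e-04), all values being log2 fold changes. Rrs1, which helps to load the 5S ribosomal RNA, rose by 0.27 on the log2 scale (adjusted p = 0.00523), although its libraries overlapped, and Ebna1bp2 rose by 0.16 (adjusted p = 0.0164).

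Bop1, Brix1 and Nop16 had the lowest fold changes of the 60S factors. Bop1 had 326, 304, 336 and 322 CPM in control 1 to 4 and 266, 248, 259 and 274 in 4A1 KO 1 to 4, with a log2 fold change of -0.29 (SE 0.047, adjusted p = 8.58e-04). Brix1, which binds early 60S precursors, had 130.4, 125, 146 and 142 CPM in control and 117, 106, 114 and 117 in 4A1 KO, and its log2 fold change was -0.29 (SE 0.049, adjusted p = 0.00117). Nop16 had 191, 188, 214 and 187 CPM in control and 177, 171, 175 and 173 in 4A1 KO, a log2 fold change of -0.18 (SE 0.052, adjusted p = 0.019) that was -0.12 (adjusted p = 0.168) without replicate 3. In all 3 the control libraries lay above the 4A1 KO libraries without overlap, and the same held for Ftsj3, a methyltransferase of precursor RNA, with -0.15 (adjusted p = 0.0159). Bop1 works in a complex with Pes1 and Wdr12, whose subunits did not move together, since Wdr12 rose, with a log2 fold change of 0.19 (SE 0.048, adjusted p = 0.0103), and Pes1 had 0.11 (adjusted p = 0.0688), which did not pass. The other factors that did not pass were Nip7, Nop2, Mrto4, Nop53, Las1l and Rrp1b, with log2 fold changes from -0.071 to 0.072.

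**Figure D4:**
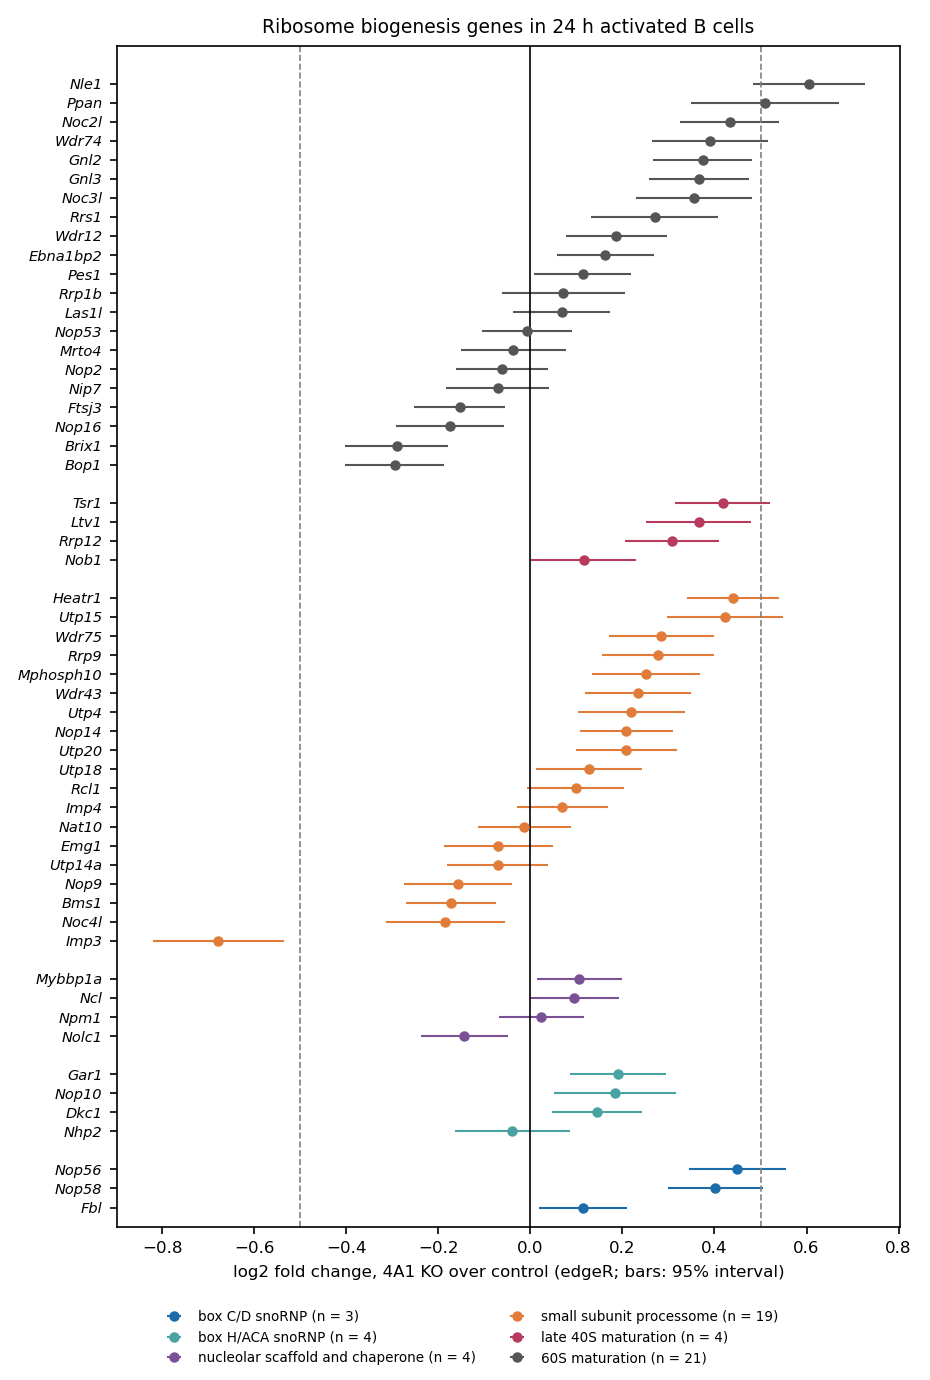
Log2 fold change, 4A1 KO over control, of each of the 55 ribosome biogenesis genes by role group, with 95% intervals from edgeR and dashed lines at the 0.5 thresholds. Nle1 and Ppan lie right of the upper threshold and Imp3 left of the lower one, and most intervals lie between the thresholds.

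**Figure D5:**
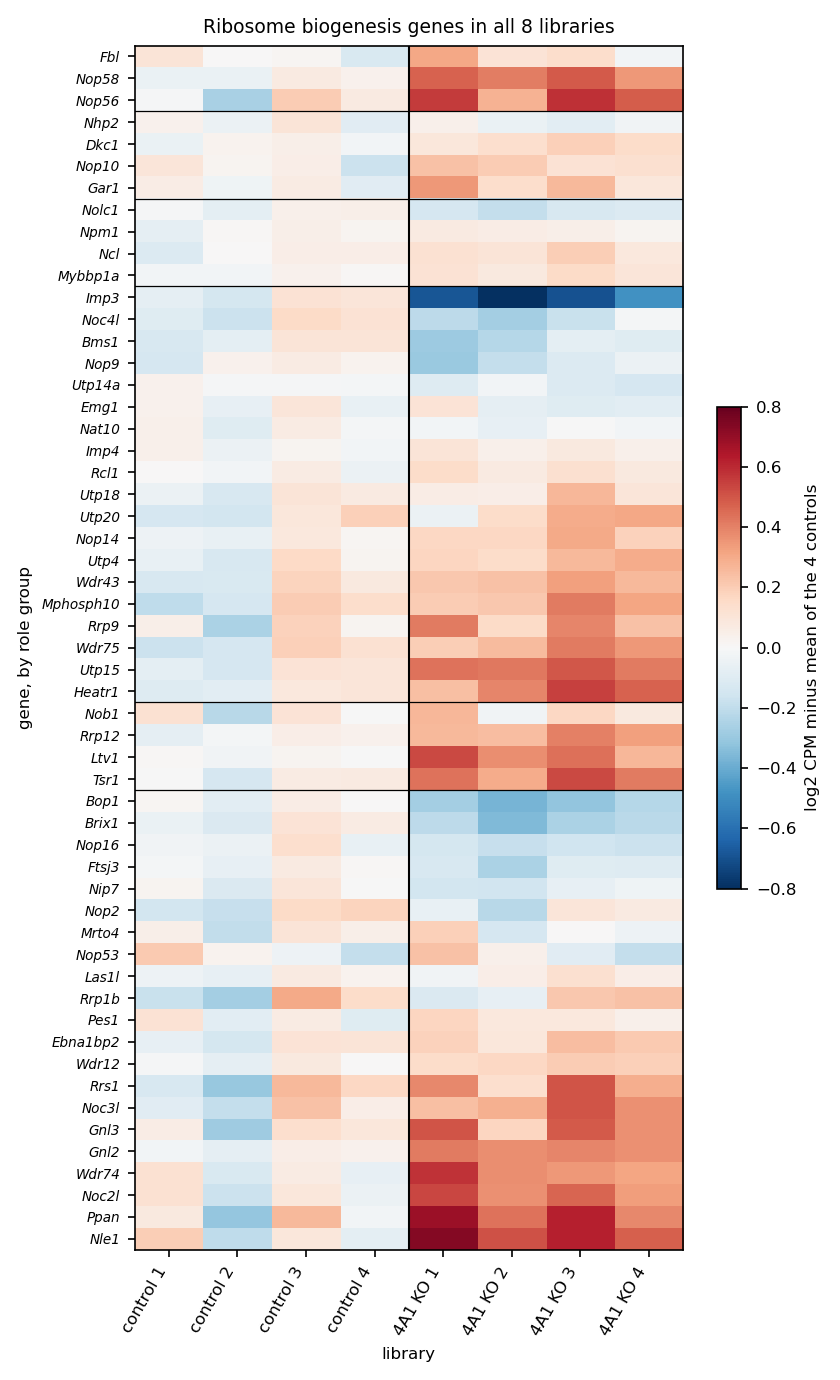
Log2 CPM of each of the 55 ribosome biogenesis genes in each of the 8 libraries, minus the mean of the 4 control libraries, with black lines between role groups. Imp3, Bop1, Brix1 and Nolc1 are blue and Nop56, Nop58, Heatr1, Tsr1, Nle1 and Ppan red in all 4 4A1 KO libraries.

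Myc, whose protein activates many ribosome biogenesis genes, had 436, 303, 511 and 649.9 CPM in control 1 to 4 and 445, 430.3, 423 and 537 in 4A1 KO 1 to 4, and these overlapped widely. Its log2 fold change was -0.013 (SE 0.13, adjusted p = 0.939), with a 95% interval from -0.31 to 0.28, wider than that of any of the 55 genes. The same-numbered pairs differed by 0.030, 0.51, -0.27 and -0.28 on the log2 scale for replicates 1 to 4, and the fitted value was -0.27 (adjusted p = 0.00895) without replicate 2 but 0.12 (adjusted p = 0.471 and 0.393) without replicate 3 or 4, so that it turned sign with the replicates used. Max, the DNA-binding partner of MYC, had 119.5, 121, 143 and 145 CPM in control and 167, 168, 179.7 and 172 in 4A1 KO, without overlap, and a log2 fold change of 0.35 (SE 0.055, adjusted p = 7.32e-04). Whether either bears on the ribosome biogenesis genes was not tested.

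The promoters were read for short sequences that such genes can share. RefSeq promoters, 250 bases before to 50 after the start site in build GRCm38.p6, were matched by symbol for 48 of the 55 genes. The E-box CACGTG, which reads the same on both strands and is the site that MYC and MAX bind, was found in 11 of the 48 (22.9%), beside 8.09% of the promoters of 27025 genes and 12.2% of those of 9463 genes tested here. The ETS-type sequence CCGGAAG, on either strand, was found in 20 (41.7%), beside 9.93% and 21.5%. CCAAT was found in 19 (39.6%, beside 41.1% and 43.5%), TATAAA in 3 (6.25%, beside 15.7% and 8.35%), the YY1 sequence AAGATGGC in 2 (4.17%, beside 3.19% and 5.65%) and the palindromic NRF1 motif in none (beside 1.07% and 2.48%). These 6 sequences do not contain each other. The E-box is shown here, in capitals, with flanking bases in lower case, for the called gene Nle1, for both late 40S factors that held one and rose, for the UTP-A gene Wdr43 and, as a gene that did not change past the test, for Nop2.
Nle1, chr11:82908355-82908384, minus strand: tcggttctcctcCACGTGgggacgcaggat
Tsr1, chr11:74898092-74898121, plus strand: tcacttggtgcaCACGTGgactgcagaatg
Ltv1, chr10:13193092-13193121, minus strand: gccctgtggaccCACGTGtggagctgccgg
Wdr43, chr17:71616220-71616249, plus strand: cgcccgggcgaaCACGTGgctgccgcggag
Nop2, chr6:125131811-125131840, plus strand: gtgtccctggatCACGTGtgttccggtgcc
In Nle1 the E-box began 23 bases after the start site, in Tsr1 24, in Ltv1 28 and in Wdr43 17, and in Nop2 60 bases before it. The other 6 genes with an E-box were Imp4, Mybbp1a, Pes1, Utp18, Utp20 and Utp4. Members with an E-box had a median log2 fold change of 0.21 (n = 11) and those without one 0.12 (n = 37), beside 0.18 (n = 20) and 0.11 (n = 28) for the ETS-type sequence and 0.14 (n = 19) and 0.12 (n = 29) for CCAAT, with no test made. Imp3 and Ppan, the other called genes, held no CACGTG in these windows.

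Length and base composition were set beside the fold changes as a description across genes, which share libraries and are not independent. Spearman's rho between transcript length and log2 fold change was 0.12 over the 55 genes and 0.062 over 14178 genes tested, and for GC content it was -0.073 and -0.059. With the number of exons, rho was 0.23 over the 55 genes and -0.061 over all. Imp3 and Rrs1 had 1 exon each, and Utp20 had 62. The 55 genes lay on 17 chromosomes, with 8 of them on chromosome 11.

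Further genes of the pathway, 60 in all, were compared in the same way. Of these, 2 were called higher and 2 lower, 4 of 60 (6.67%, beside 25.3% of all genes tested). At an adjusted p under 0.05 there were 20 higher (33.3%, beside 26.3% of all genes), 11 lower (18.3%, beside 26.7%) and 29 that did not pass, with a median log2 fold change of 0.038. Among 27 other small subunit factors 10 were higher (37%, beside 26.3% of all genes) and 5 lower (18.5%, beside 26.7%). The smallest adjusted p-values there belonged to Aatf (112 ± 6.72 against 167 ± 6.93 CPM, log2 fold change 0.58, adjusted p = 3.87e-05) and the kinase Riok1 (0.47, adjusted p = 1.52e-04). Among 25 other large subunit factors 9 were higher (36%, beside 26.3%) and 3 lower (12%, beside 26.7%). They were led by Eif6, which keeps the new 60S subunit from joining the 40S (295 ± 15.1 against 401 ± 18.02 CPM, log2 fold change 0.45, adjusted p = 4.99e-05), and by Sdad1 (0.42, adjusted p = 1.23e-04). Among 8 assembly factors of small nucleolar RNPs 1 was higher (12.5%, beside 26.3%) and 3 were lower (37.5%, beside 26.7%). They were led by Znhit3 (24.0 ± 2.13 against 15.9 ± 1.46 CPM, log2 fold change -0.59, adjusted p = 2.60e-04) and Shq1, a chaperone of dyskerin (-0.39, adjusted p = 0.00175). Aatf and Znhit3 were called, as were Mdn1 (0.70, adjusted p = 1.81e-04) and Rexo4 (-0.51, adjusted p = 1.93e-04), which are named after their values were seen. The same-numbered pairs of Mdn1 differed by -0.0085, 1.01, 0.54 and 0.54 on the log2 scale for replicates 1 to 4, with no increase in replicate 1, and over all 8 libraries its genotypes overlapped and the log2 fold change was 0.54 (adjusted p = 0.00461).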

How the data were processed

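The authors trimmed the reads with Trim Galore 0.6.6, mapped them to GRCm39 with HISAT2 2.1.0, counted them per gene over merged isoforms with opposing strand-specific pairs in Seqmonk and deposited these counts without normalization. The TPM were calculated by the authors with StringTie 2.1.1 and deposited for the same 8 libraries. The treatment of multiply mapped reads is not given in the sources used here.

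Counts were fitted in R 4.3.3 with edgeR 4.0.16 (filterByExpr, TMM, quasi-likelihood test, two-sided, with batch and sex as covariates) over replicates 2 to 4, and p-values were adjusted over all 14218 genes tested by the Benjamini-Hochberg method. CPM are counts scaled to the library total, without TMM factors. In these 6 libraries batch and sex together are the replicate number as a block. The pairing comes from the batch and sex in the labels, and after subtraction of genotype means the mean r across genes was 0.409 (0.334 to 0.489) between libraries of the same number and -0.203 between others. Because the means of 3 libraries were subtracted, the second value largely follows from the first and adds nothing to it. Values are for separate mice as far as the labels say, and SD describes the spread between these libraries only. SE and the intervals come from the edgeR fit to these libraries, in which the variance of each gene is moderated with that of all genes tested. They therefore draw on other genes and are not a measure of the spread between the libraries of a gene alone. Alternatives were other normalizations, DESeq2 1.42.0, glmTreat, no filter, all 8 libraries, no block, leaving out each replicate and limma 3.58.1 on log2(TPM + 1) or log2(TPM + 0.1), with and without a minimum mean of 1 TPM. Effects of batch and sex were tested as interaction terms in all 8 libraries. The code was tested on simulated counts. Coordinates, exons and transcript lengths came from GENCODE annotation of GRCm39, and pseudogenes were matched with blastn 2.17.0 at 90% identity and 80% coverage.

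The members, role groups and pathway lists were chosen with earlier results of these data known. Values in every library are given for all snoRNP, scaffold and chaperone genes and, in each other group, for the gene with the highest control TPM and the 3 highest and 3 lowest by log2 fold change. Outside the members, Eif4a1, Myc, Max and the 2 genes of each other pathway list with the smallest adjusted p are named, with other names given as chosen after their values were seen. A B cell marker of the fixed list, and the sum that holds it, are not reported here.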

Additional observations from a re-analysis of the deposited data

Results flagged for a closer look

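In 4 of 110 groups of 4 libraries (55 genes in 2 genotypes) 1 library lay far from the other 3, where chance alone gives about 5.5, or 1 in 20. The gap to the nearest library was divided by the range of the group. In control, this ratio was 0.922 for Utp14a, where control 1 had 145.8 CPM and the nearest library 141 CPM, and 0.837 for Nop16, where control 3 had 214 CPM and the nearest 191 CPM. In 4A1 KO it was 0.862 for Nop14, where 4A1 KO 3 had 269 CPM and the nearest library 248 CPM, and 0.904 for Emg1, where 4A1 KO 1 had 219.7 CPM and the nearest 194 CPM. Control 1 and 4A1 KO 1 were outside the fitted comparison.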

How the results depend on the processing

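Over 14 alternative settings Imp3 was called lower in each, and the median log2 fold change of the members stayed between 0.12 and 0.15. Of 392 values of the 28 genes described in every library, 378 kept their direction and their side of the call thresholds for adjusted p and fold change together. By the adjusted p alone, 16 of the 37 members past 0.05 stayed past it in all 13 settings that test against no change, and 21 lost it in at least 1, most often Fbl (10), Nop9 (9) and Dkc1 (7). Among the members 2 were called higher (Nle1 and Ppan), and this count was 1 (Nle1) with DESeq2 and normal shrinkage, without the replicate block and by limma on TPM without a filter, 0 with glmTreat, and 1 to 2 when a replicate was left out (Nle1 alone without replicate 2). By limma on filtered TPM the 2 were Nle1 and Nop58. Without the replicate block, 15 members were higher and 3 lower at an adjusted p under 0.05 instead of 28 and 9, and of the other factors 12 were higher and 7 lower instead of 20 and 11. By limma, members past that p were 18 higher and 3 lower on log2(TPM + 0.1), 16 and 5 without a filter, and 4 lower on log2(TPM + 1), and other factors were 13 higher and 5 lower on log2(TPM + 0.1) and 7 lower on log2(TPM + 1). Leaving out a replicate gave 20 to 27 members higher and 4 to 9 lower (4 without replicate 3), and 13 to 22 other factors higher and 7 to 8 lower (13 and 7 without replicate 2). Other factors called were 2 higher and 2 lower. They were 1 higher and 0 lower with glmTreat, 1 lower with upper quartile normalization, with DESeq2 and normal shrinkage and in each limma setting, and 2 to 4 higher (4 without replicate 4) and 1 to 2 lower (1 without replicate 3) when a replicate was left out. The sign turned for Npm1 in the 3 limma settings (-0.0073) and for Nhp2 without replicate 3 (0.036, within a range of -0.094 to 0.036 when a replicate was left out), neither past the test. The cause of these differences was not tested. The 3 libraries per genotype limit the precision.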

Other observations

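The summed level of each role group is given over all 8 libraries as a description. Box H/ACA genes summed to 974 to 1075 CPM in control and 1079 to 1116 in 4A1 KO, and the scaffold and chaperone genes to 10309 to 11228 and 11307 to 11875 CPM, neither with overlap between the genotypes. Small subunit processome genes summed to 3712 to 4295 CPM in control and 4238 to 4609 in 4A1 KO, and the 60S genes to 4724 to 5607 and 5442 to 6013 CPM. These 2 sums overlapped between the genotypes, but each was higher in 4A1 KO in all 4 same-numbered pairs. No member had a genotype effect that differed between batches or between sexes after adjustment (edgeR interaction terms, 0 of 55 each), while 2 and 1 of 14211 genes passed. At an unadjusted p under 0.05 there were 2 members for batch and 0 for sex, beside 3.79% and 2.79% of all genes so tested.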
